A study of Mus musculus with 12 samples.

Results

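The effect on open chromatin of MLi-2, which blocks the kinase LRRK2, was examined in neurons that had taken up α-synuclein pre-formed fibrils (PFF), by setting 3 ATAC-seq peak lists of PFF+MLi-2 cultures against 3 lists of cultures given PFF alone. These are 6 of the 12 libraries of the series, whose other 2 groups received PBS or PFF with Rab5 antisense oligonucleotides (ASO). Peaks of the 6 lists were merged wherever they overlapped by at least 1 bp, which gave 215600 regions. A region was called lost when it had a peak in 3 of 3 PFF and 0 of 3 PFF+MLi-2 libraries (3454 regions) and gained in the reverse case (796 regions), and peak height was compared in 84625 regions that all 6 libraries shared.

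All cultures were wild-type primary cortical neurons of C57BL/6 mice, prepared at embryonic day 18. Both groups received PFF for 7 days, and in the PFF+MLi-2 group the inhibitor was present for the last 5 of them. Per the study's methods the fibrils were made of human α-synuclein, DMSO was the vehicle of MLi-2, and a pregnancy counted as 1 biological replicate. Each group had 3 replicates, all libraries are labelled batch 1, and MLi-2 was given only together with fibrils. The free-text description of the 3 PFF+MLi-2 libraries gives PBS as the treatment where title, treatment label and design text give PFF, and PFF was taken. An inhibitor of the protein leaves the gene intact, so the Lrrk2 promoter does not check these labels.

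LRRK2 is a large kinase of the endolysosomal system that phosphorylates Rab GTPases, the switches that direct vesicle traffic, and activating mutations in it cause familial Parkinson's disease. Stress on lysosomes releases the transcription factors TFEB and TFE3 to the nucleus, where they bind the E-box CACGTG at genes of lysosomes and autophagy. The same 6 letters are bound by MYC, USF and the clock factors, and proneural factors such as NEUROD prefer CATCTG. The cAMP response element TGACGTCA is the site of CREB, through which synaptic activity and calcium act on chromatin. In ATAC-seq the transposase Tn5 cuts open DNA, so fragments pile up over active promoters and enhancers, and a lost or gained peak marks a position where this pile crosses the calling threshold in all replicates of 1 group only.

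The sequences below carry the E-box CACGTG, in capitals, whose share differed between lost and gained regions. All are from the plus strand of GRCm38, credited to the RefSeq genome of that build, 5′ to 3′. The first 3 are the lost regions away from promoters that hold the E-box and had the highest mean fold percentile in PFF libraries. They lie at chr6:8474513-8474633 in an intron of Gm45062, 34900 bp from the start site of Glcci1, the nearest coding one, at chr13:63140874-63140994 in an intron of 2010111I01Rik and at chr8:115081669-115081789 in an intron of Wwox.
Glcci1: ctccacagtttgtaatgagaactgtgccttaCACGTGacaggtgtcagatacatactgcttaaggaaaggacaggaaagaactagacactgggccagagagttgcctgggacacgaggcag
2010111I01Rik: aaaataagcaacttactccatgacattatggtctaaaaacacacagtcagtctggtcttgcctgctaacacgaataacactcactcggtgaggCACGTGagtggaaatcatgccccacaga
Wwox: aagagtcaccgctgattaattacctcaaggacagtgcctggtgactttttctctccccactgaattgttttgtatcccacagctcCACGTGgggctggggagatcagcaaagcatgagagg

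Lost promoter regions with the same E-box within 100 bp of the summit included that of Sirt2, a cytoplasmic deacetylase (chr7:28775256-28775456, in a region 218 bp upstream of the start site), that of Rragc, a Rag GTPase that recruits mTORC1 to lysosomes (chr4:123916817-123917017), and that of Uvrag, a regulator of autophagosome maturation (chr7:99015566-99015686). The Rragc region lies in Gm12905, 318 bp from the nearest start site, that of Gm12905, and 495 bp from that of Rragc. Its E-box lies outside the called region. The last 2 are shown because they belong to the autophagy and TFEB gene list.
Sirt2: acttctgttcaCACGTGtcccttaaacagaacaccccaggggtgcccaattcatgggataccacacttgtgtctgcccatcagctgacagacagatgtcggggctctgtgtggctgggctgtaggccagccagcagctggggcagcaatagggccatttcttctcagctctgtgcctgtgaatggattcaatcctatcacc
Rragc: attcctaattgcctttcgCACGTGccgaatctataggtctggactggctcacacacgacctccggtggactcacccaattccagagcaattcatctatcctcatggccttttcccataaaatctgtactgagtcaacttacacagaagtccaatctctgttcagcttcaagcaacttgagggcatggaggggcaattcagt
Uvrag: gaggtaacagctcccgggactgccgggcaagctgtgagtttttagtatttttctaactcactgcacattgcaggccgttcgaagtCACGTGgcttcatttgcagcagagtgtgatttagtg

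Of the gained regions, 6 had the E-box within 100 bp of the summit. The 2 with the highest mean fold percentile in PFF+MLi-2 libraries lie at chr14:48795507-48795627 in an intron of Otx2os1, 121599 bp from the start site of Otx2, the nearest coding one, and at chrX:163038965-163039085 69809 bp from the start site of Ctps2, the nearest coding one. In the latter the E-box lies within 100 bp of the summit but beyond the edge of the called region.
Otx2: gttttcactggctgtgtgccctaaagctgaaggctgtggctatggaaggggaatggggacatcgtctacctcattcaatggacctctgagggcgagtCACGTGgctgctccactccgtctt
Ctps2: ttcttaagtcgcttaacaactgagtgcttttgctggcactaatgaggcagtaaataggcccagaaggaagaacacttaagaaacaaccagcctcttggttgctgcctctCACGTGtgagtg

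The last set shows regions away from promoters that hold the cAMP response element TGACGTCA, in capitals, and whose peak had some of the largest negative shifts with MLi-2. They lie at chr14:21583216-21583336 in an intron of Kat6b, at chr8:11779133-11779253 in an intron of Arhgef7 and at chr6:141434392-141434512 in an intron of Pde3a, where Slco1c1 has the nearest coding start site.
Kat6b: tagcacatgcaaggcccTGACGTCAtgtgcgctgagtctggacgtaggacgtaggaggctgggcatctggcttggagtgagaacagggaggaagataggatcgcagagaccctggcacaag
Arhgef7: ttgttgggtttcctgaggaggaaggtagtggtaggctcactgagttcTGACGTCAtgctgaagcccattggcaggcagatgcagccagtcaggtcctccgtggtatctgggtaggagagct
Slco1c1: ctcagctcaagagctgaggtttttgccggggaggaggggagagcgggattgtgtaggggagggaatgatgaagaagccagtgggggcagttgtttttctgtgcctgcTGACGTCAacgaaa

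Fewer peaks were called with MLi-2. The PFF libraries 1 to 3 held 172262, 166330 and 151801 peaks and the PFF+MLi-2 libraries 1 to 3 held 145902, 147867 and 145384. Every PFF list was longer than every PFF+MLi-2 list, and the means of 163464 ± 10527 and 146384 ± 1310 (SD, n = 3) gave a difference of −17080 peaks (exact permutation test over the 20 assignments of the libraries, two-sided, p = 0.1, the smallest it can give, adjusted p = 0.2 over the 18 measures tested per library). Peaks covered 31.8, 31.7 and 28.5 Mb in PFF and 26.6, 26.3 and 26.1 Mb in PFF+MLi-2, with no overlap between the groups (exact p = 0.1, adjusted p = 0.2). The median peak had 17 fragments at its summit in every PFF library and 18, 17 and 18 in the PFF+MLi-2 libraries, and the median fold was 5.128, 5.395 and 5.593 in PFF and 5.235, 5.051 and 5.175 in PFF+MLi-2, with overlap. The lowest local background of a peak, a floor set by the depth of a library, was 1.73, 1.59 and 1.503 fragments in PFF and 1.88, 1.77 and 1.90 in PFF+MLi-2, again without overlap, and its part in the shorter lists was not tested.

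**Figure D1:**
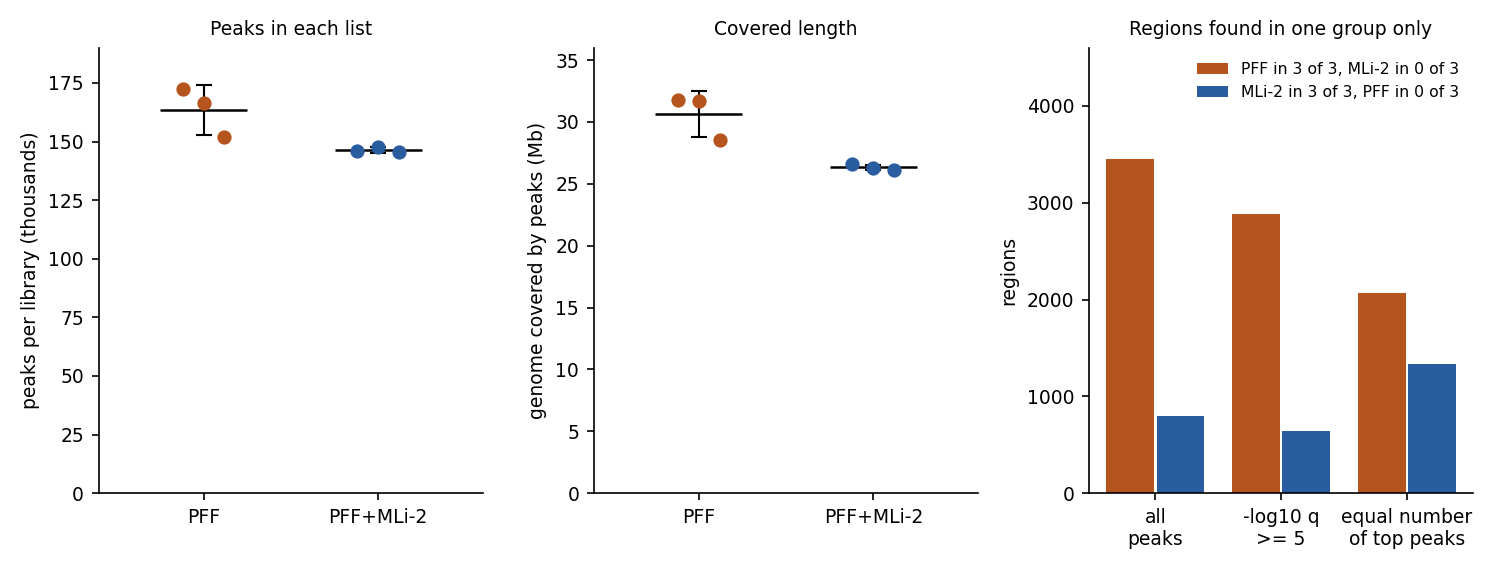
Left and middle, peaks per library and genome covered by peaks in Mb (points are libraries, lines the mean of 3, bars the SD). Right, regions lost (orange) and gained (blue) with all peaks, with peaks of −log10 q of at least 5, and with the 145384 strongest peaks of every library; lost regions go from 3454 to 2069 and gained regions from 796 to 1338 between the first and the last setting.

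The promoters of cortical neurons were open in both groups. All 14 glutamatergic cortical neuron markers had a promoter peak in all 6 libraries, as had 10 of 12 GABAergic interneuron markers, 10 of 10 astrocyte markers and 11 of 11 neural progenitor markers. None of 11 microglia markers had a promoter peak in all 6 libraries, and for 7 of them (Aif1, Cx3cr1, Trem2, Tyrobp, C1qb, Itgam and Spi1) no library had one. Of 11 vascular and fibroblast markers 3 had a peak in all 6 libraries, and of 10 oligodendrocyte lineage markers 6. In a mixed culture, open chromatin in few cells and weak opening in many cannot be told apart.

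Lost regions outnumbered gained regions. They made up 1.6% of all regions and gained regions 0.369%, so that lost regions were 81.3% of the lost and gained ones together. When each library was cut to its 145384 strongest peaks by p-value, 2069 regions were lost and 1338 gained, and the lost share was 60.7%. Lost regions were spread evenly over the genome, from 1.41% of the regions of chromosome 19 to 1.83% of those of chromosome 17 among the autosomes and X. Gained regions ran from 0.283% on chromosome 17 to 0.436% on chromosome 19.

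Lost and gained regions alike were small and mostly away from promoters. Their median width was 147 and 137 bp, against 293 bp for regions in all 6 libraries, and the median peak in them had 13 and 14 fragments at the summit, against 23. Promoters, taken as 1 kb to each side of a start site, held 506 (14.65%) of the lost and 82 (10.3%) of the gained regions, 27.6% of regions in all 6 libraries and 19.7% of all regions. A further 13264 regions, called in some other combination of 3 libraries and as weak (median of 13 fragments), were at promoters in 15.0% of cases. Introns held 47.2% of the lost and 46.7% of the gained regions, and intergenic sequence 33.2% and 38.2%.

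**Figure D2:**
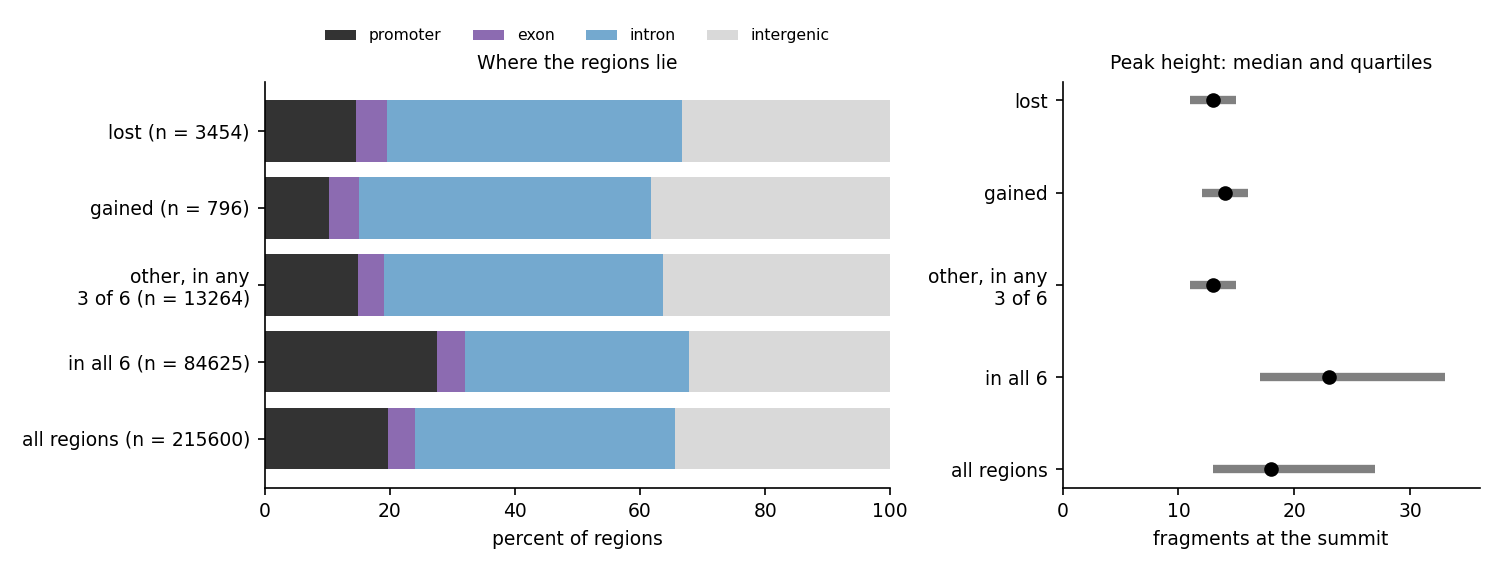
Left, share of regions at promoters, exons, introns and between genes for 5 sets of regions. Right, fragments at the summit of the peaks in each set (dot, median; bar, quartiles); lost, gained and other 3-of-6 regions have medians of 13 or 14 fragments and regions in all 6 libraries 23.

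Some lost promoter regions were the edge of a larger open promoter. Of the 506 lost regions at promoters, 250 (49.4%) lay within 500 bp of a region with a peak in all 6 libraries, as did 29 (35.4%) of the 82 gained ones and 55.2% of the other 3-of-6 regions at promoters. Over all positions the shares were 17.9% of lost, 13.7% of gained and 19.5% of all regions.

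The strongest lost regions lay in or near genes of varied function. In an exon of Dusp9, which encodes a phosphatase of MAP kinases (chrX:73642976-73643371), the peak reached the fold percentile 66.0, 77.4 and 79.6 of the PFF lists 1 to 3, that is, its height ranked above that share of the peaks of the list. It had no peak with MLi-2, 2 peaks among the 3 PBS libraries and 0 among the Rab5 ASO libraries. Between genes, 99740 bp from the nearest start site, that of Gm26489, the lost region at chr2:171406171-171406411 stood at percentiles 61.3, 70.8 and 87.9 in PFF and had a peak in 3 of 3 PBS and 3 of 3 Rab5 ASO libraries. The other 8 of the 10 lost regions with the highest mean percentile were in or next to Seh1l, a nucleoporin that also acts in nutrient sensing upstream of mTORC1, the zinc finger gene Zfat, the talin gene Tln2, the Arf6 regulator Acap2, Rbm14, the cation channel gene Trpc5, 35896 bp downstream of the Setd3 start site and 31855 bp upstream of Gm49213. Their summits held 14 to 22 fragments.

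The strongest gained regions were of like height. The highest, at chr12:68683260-68683540 between genes, stood at percentiles 89.4, 84.6 and 78.0 of the PFF+MLi-2 lists with 26, 22 and 20 fragments. A region in an intron of Adk, the adenosine kinase gene (chr14:21101599-21101737), followed with percentiles 83.9, 77.0 and 80.2. Both had a peak in 3 of 3 PBS libraries. A region 19925 bp upstream of Acvr1c, a receptor of the TGF-beta family, stood at 81.6, 73.9 and 56.6. Of the other 7, those in Gabrg3, a GABA receptor subunit gene, Erich3 and Gm14243 were intronic and that of Qtrt2 lay at the promoter. The remaining ones were between genes, 24607 bp upstream of Nfib, a transcription factor gene of cortical development, 71213 bp from Gm13579 and 138827 bp from Gm49243.

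At protein-coding promoters the lost regions with the highest percentiles belonged to Gm21992 and Rbm14, Arhgap20, Cux1, Psmb11, Sirt2 and Adam23. The Arhgap20 region, at a gene for a GTPase-activating protein, stood at percentiles 55.6, 82.6 and 51.5 in PFF and had a peak in 0 of 3 PBS and 0 of 3 Rab5 ASO libraries. The Cux1 region, at 1 of the start sites of this homeodomain gene of upper-layer neurons, stood at 73.7, 42.0 and 68.2 and had a peak in all 3 PBS and all 3 Rab5 ASO libraries. The Sirt2 region, whose E-box is printed above, stood at 45.3, 72.8 and 55.6 with 19, 30 and 22 fragments. Absence with MLi-2 thus went with quite different states in the other groups. Of the 82 gained promoter regions, the 6 at protein-coding start sites with the highest percentiles were those of Qtrt2, a subunit of the tRNA queuosine enzyme, Casd1, Car13, Dock4, Dcstamp and Syde1, and their percentiles ran from 38.4 to 77.0.

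Lost regions were spread over many genes. Of 26170 genes with a region at their promoter or in their body, 2116 had a lost region, 515 a gained one and 142 both. Ptprm, a receptor phosphatase gene of cell adhesion, had 6 lost and 0 gained among its 100 regions. Ank2, Csmd1, Dlgap2, Grid1, Opcml, Ptprt and Rora each had 5 lost regions among 108 to 162, which is 3.09% to 4.63% of their regions against 1.6% of all regions, and these genes were picked for their counts. The gene models with the largest counts, Gm20388 with 20 lost of 882 regions and Fgfr2 with 6 lost of 455, span 4435 kb and 2961 kb and cover other genes.

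The E-box CACGTG was in 171 of 3454 lost regions (4.95%, 95% Wilson interval 4.28 to 5.73) and in 6 of 796 gained regions (0.754%, 0.346 to 1.63). It was searched on both strands in the 201 bp centred on the summit, and intervals cover counting error only, since neighbouring regions are not replicates. The share was 3.72% over all 215600 regions, 4.31% in shared regions and 3.14% (2.86 to 3.45) in the other 3-of-6 regions. So the lost set was above, and the gained set below, weak regions with no such pattern over the libraries. Away from promoters the shares were 4.88% of lost and 0.700% of gained regions, and in regions with a GC content of 45% to 55% they were 5.37% and 0.763%. With the 145384 strongest peaks of every library, a setting chosen after seeing the data, the E-box was in 4.98% of lost and 1.05% of gained regions.

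The share of peaks with the E-box also separated the groups when each list was counted whole. It was 3.95%, 4.02% and 4.05% in the PFF libraries 1 to 3 and 3.74%, 3.79% and 3.86% in the PFF+MLi-2 libraries. All PFF libraries lay above all PFF+MLi-2 libraries, by 0.210 percentage points on average (exact permutation test, two-sided, p = 0.1, the smallest it can give, adjusted p = 0.2). In the 145384 strongest peaks the shares were 4.015%, 4.115% and 4.08% against 3.743%, 3.791% and 3.857%, again without overlap.

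**Figure D3:**
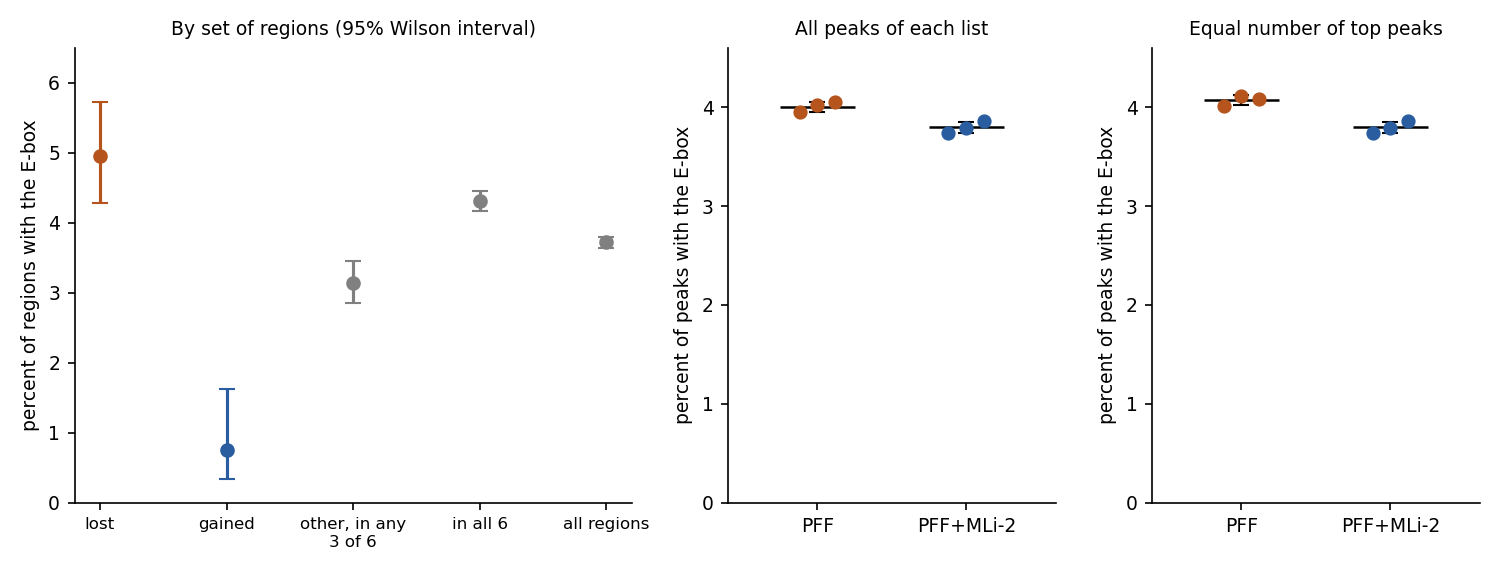
Percent of regions or peaks with the E-box CACGTG, which TFEB and TFE3 share with MYC, USF and the clock factors, within 100 bp of the summit. Left, by set of regions with 95% Wilson intervals, from 0.754% of gained to 4.95% of lost regions; middle and right, by library over all peaks and over an equal number of top peaks (lines the mean of 3, bars the SD), with every PFF library above every PFF+MLi-2 library.

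Some other forms of the E-box also had a larger share in lost than in gained regions, and some did not. CATCTG, the proneural form, was in 27.0% of lost, 15.8% of gained and 23.9% of the other 3-of-6 regions. CAGCTG was in 22.2% of lost and 14.2% of gained regions, CACCTG in 12.6% of lost and 6.28% of gained ones, and CACATG in 18.8% and 11.7%. By contrast CAAATG was in 13.5% of lost and 15.3% of gained regions, CAAGTG in 12.2% of lost and 12.9% of gained ones, and CAATTG in 2.26% and 2.76%. The remaining forms were close, with CAACTG in 12.1% of lost and 11.3% of gained regions and CATATG in 5.47% and 4.15%. Any form of CANNTG was in 76.7% of lost, 64.9% of gained and 71.1% of all regions. These forms are counted on both strands and the last contains the others. The AP-1 site TGANTCA, bound by FOS and JUN, was in 13.3% of lost and 8.92% of gained regions, against 12.9% of the other 3-of-6 regions and 11.2% of all. The homeodomain core TAATTA was in 6.02% of lost, 6.91% of gained and 6.67% of all regions. Per library, CATCTG was in 22.2%, 21.9% and 21.8% of PFF peaks and in 21.2%, 20.7% and 21.0% of PFF+MLi-2 peaks, without overlap. Of the 13 motif shares tested per library, 7 separated the groups. The E-boxes CACGTG and, at a higher level, CATCTG were lower with MLi-2, as was the MEF2 core, and CCGGAAGT (ETS factors), GGGCGGGG (SP factors), GCGGGGGCG (EGR1) and GTTGCCATG (RFX factors) were higher, each at an exact p of 0.1 and an adjusted p of 0.2. In the 145384 strongest peaks both E-boxes and the MEF2 core were still lower and the EGR1 motif higher without overlap, TGACGTCA was lower without overlap as well, while the groups overlapped for the ETS, SP and RFX motifs.

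PBS libraries, which had no part in choosing the regions, more often had a peak where MLi-2 had gained one. The gained regions had a peak in 75.1%, 42.6% and 57.3% of cases in the PBS libraries 1 to 3, the lost regions in 52.3%, 26.8% and 35.4%, and the other 3-of-6 regions in 63.6%, 31.9% and 41.2%. In each PBS library the gained set was the highest and the lost set the lowest of the 3. In the Rab5 ASO libraries, which also received PFF, the order of the sets differed. There the gained regions had a peak in 45.4%, 32.0% and 30.9% of cases, the lost regions in 50.4%, 43.5% and 37.6%, and the other 3-of-6 regions in 54.9%, 46.6% and 40.9%. The PBS and Rab5 ASO libraries held 137299 to 184564 peaks each.

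Peak height over the 84625 shared regions gave no call at an adjusted p under 0.05. Within each library the shared regions were ranked by fold and ranks were converted to normal scores, and a shift is in standard deviations of the score and positive when the peak stood higher with MLi-2. By limma with Benjamini-Hochberg adjustment 0 regions were called (0%), and the lowest adjusted p was 0.190. At an unadjusted p under 0.05, 4623 regions were higher (5.46%) and 4778 lower (5.65%). The 3 libraries of each group did not overlap, with MLi-2 higher, in 8261 regions (9.76%) and, with MLi-2 lower, in 6404 (7.57%). Scores of libraries of 1 group correlated at 0.873 to 0.877 across regions in PFF and 0.858 to 0.867 in PFF+MLi-2, and those of different groups at 0.833 to 0.858.

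The direction of the promoter shift depended on the measure of height. By the rank of fold among shared regions the median shift was 0.07 over 23337 promoter regions, of which 980 (4.199%) were higher and 709 (3.04%) lower at an unadjusted p under 0.05, and −0.02 over the 61288 other regions. By the rank of fold within the whole list of each library the promoter median was −0.02, with 444 regions higher and 1348 lower, against −0.12 for the other regions. The percentiles given for single regions are such whole-list ranks, which were mostly lower with MLi-2, while their shifts are by the rank among shared regions. The gap of 0.10 between promoters and other regions by the shared rank was 0.05 after centring on GC content and 0.01 when peaks were ranked by −log10 p. On the log2 of the summit pileup it was −0.02, the opposite sign. The fold is the pileup over the local background, and at promoters the median background was 3.81, 3.76 and 3.45 fragments in PFF and 3.71, 3.52 and 3.82 in PFF+MLi-2, while away from promoters it was 2.09, 1.93 and 1.82 against 2.19, 2.04 and 2.23.

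**Figure D4:**
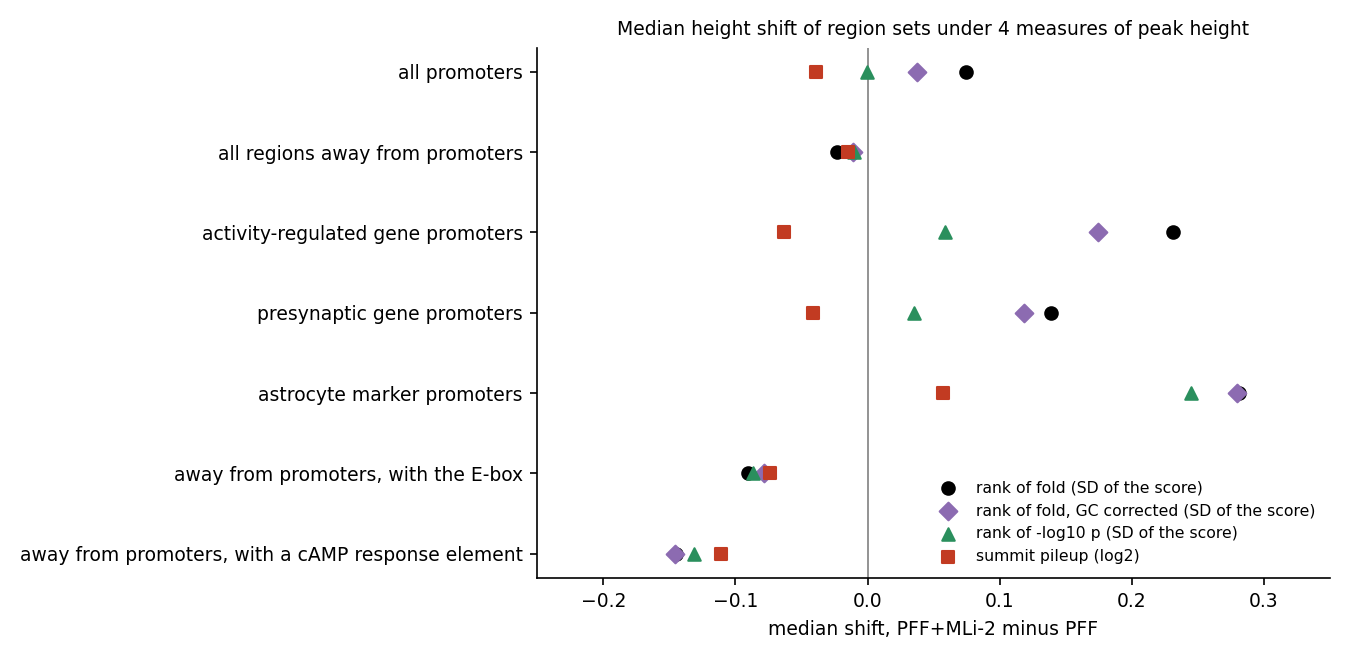
Median shift (PFF+MLi-2 minus PFF) of 7 sets of regions under 4 measures of peak height. Promoter sets of all, activity-regulated and presynaptic genes lie right of 0 by the rank of fold and left of 0 by summit pileup, whereas regions away from promoters with the E-box or a cAMP response element lie left of 0 under each measure.

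Distal cAMP response elements stood lower with MLi-2 under each measure of height, while the 506 promoter regions with the element stood higher by the rank of fold (median shift 0.09, beside 0.07 for promoter regions without it, mean scores 0.93, 0.90 and 0.95 in PFF and 1.00, 1.03 and 1.00 in PFF+MLi-2). The share of all peaks with it was 0.550% in PFF and 0.573% in PFF+MLi-2 on average, with overlap between the groups. Among the 145384 strongest peaks of each list it was the other way, 0.585%, 0.585% and 0.5895% in PFF and 0.577%, 0.565% and 0.583% in PFF+MLi-2, without overlap. TGACGTCA, searched on both strands of the 201 bp, was in 0.465% of all regions and in 187 of the 61288 regions away from promoters with a peak in all 6 libraries. Their mean score was 0.07, 0.18 and 0.11 in the PFF libraries 1 to 3 and −0.09, −0.06 and −0.03 in the PFF+MLi-2 libraries. The groups did not overlap. Over the 61101 distal regions without the element they did not overlap either, but the gap was smaller, with means of −0.09, −0.09 and −0.10 against −0.11, −0.12 and −0.11. Of the 187 regions, 33 (17.65%) were lower and 5 (2.67%) higher at an unadjusted p under 0.05, set against 6.61% and 5.95% without the element. The median shift was −0.14 by rank of fold, −0.15 with GC correction and −0.13 by −log10 p. By fragments it was −0.11 on the log2 scale, with median pileups of 27, 28 and 27 in PFF and 24, 23 and 25 in PFF+MLi-2.

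The intronic element of Kat6b, a histone acetyltransferase gene, printed above, stood at fold percentiles 82.8, 91.1 and 77.9 in PFF and 35.5, 46.5 and 51.8 in PFF+MLi-2. All PFF libraries were above all PFF+MLi-2 libraries, and the pileup went from 24, 32 and 24 fragments to 15, 15 and 18 (shift −1.35 ± 0.24 SE, limma adjusted p = 0.201). In the Arhgef7 intron, at a gene for a Rac exchange factor of synapses, percentiles were 63.1, 76.4 and 69.8 against 11.9, 45.4 and 39.4. In the Pde3a intron, at a gene whose product breaks down cAMP, they were 91.0, 91.4 and 95.4 against 73.0, 61.1 and 80.8. At 17337 bp upstream of Car4, a carbonic anhydrase gene, the region at chr11:84940279-84940449 stood at 57.9, 59.3 and 31.0 in PFF and at 4.02, 3.999 and 10.5 with MLi-2. None of these reached an adjusted p under 0.05, and the groups did not overlap in any of the 4.

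Shared distal regions with the E-box had a smaller shift of the same sign, as had other forms of the E-box (median −0.09 for CACCTG, −0.07 for CACATG and −0.06 for CAGCTG), while 1572 promoter regions with CACGTG had a median of 0.06, beside 0.08 for those without it. Over 2073 regions away from promoters with CACGTG the mean score was −0.04, −0.01 and −0.03 in PFF and −0.14, −0.13 and −0.12 in PFF+MLi-2, without overlap. Over the 59215 distal regions without it the groups did not overlap either, with a smaller gap (−0.09, −0.09 and −0.10 against −0.11, −0.12 and −0.11). Of the 2073 regions with CACGTG 205 (9.89%) were lower and 80 (3.86%) higher at an unadjusted p under 0.05, against 6.53% and 6.02% of the distal regions without it. The median shift was −0.09 by fold, −0.09 by −log10 p and −0.07 by log2 pileup. Median pileups were 24, 24 and 23 fragments in PFF and 22, 21 and 22 in PFF+MLi-2.

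Promoters of activity-regulated genes, the immediate early genes that neurons switch on after firing, stood higher with MLi-2 by the rank of fold. Of their 46 regions in all 6 libraries, 39 had a shift above 0 and the median was 0.23, against 0.07 for all promoters. At an unadjusted p under 0.05, 8 (17.4%) were higher and 0 lower, beside 4.199% and 3.04% of all promoter regions, and 0 passed adjustment. The 8 lay at Jun, Junb (2 regions), Egr1, Egr3, Npas4, Nr4a2 and Ier2, all of which encode transcription factors or early response proteins. The median shift was 0.17 with GC correction and 0.06 by −log10 p, and it turned to −0.06 on the log2 pileup, where 0 of the 46 were higher or lower. Their median background was 8.20, 8.33 and 7.35 fragments in PFF and 7.30, 7.14 and 7.41 in PFF+MLi-2, and their median pileup 56.5, 57 and 54.5 against 54.0, 51.5 and 51.5.

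Npas4, a factor specific to neurons that responds to calcium entry, had percentiles of 51.5, 47.1 and 46.3 in PFF and 61.6, 68.6 and 54.9 in PFF+MLi-2 at its promoter region. The groups did not overlap (shift 0.60 ± 0.20 SE, limma adjusted p = 0.341), yet the fragments at the summit were 68, 68 and 61 against 61, 64 and 59. At the narrower of 2 shared Egr1 regions (344 bp) the percentiles were 13.2, 15.8 and 25.7 against 35.5, 45.6 and 26.8, with 60, 65 and 63 against 64, 68 and 59 fragments. At the wider one (998 bp) they were 52.2, 48.1 and 53.2 against 57.1, 53.6 and 60.6, with 79, 83 and 75 against 73, 71 and 75 fragments (limma unadjusted p = 0.1003). At a Junb region (chr8:84978603-84979009) they were 33.4, 18.5 and 18.6 against 44.4, 44.5 and 38.1, with 71, 70 and 65 against 65, 64 and 65 fragments. For Npas4, Junb and the wider Egr1 region the rank of fold and the count of fragments thus moved in opposite directions.

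**Figure D5:**
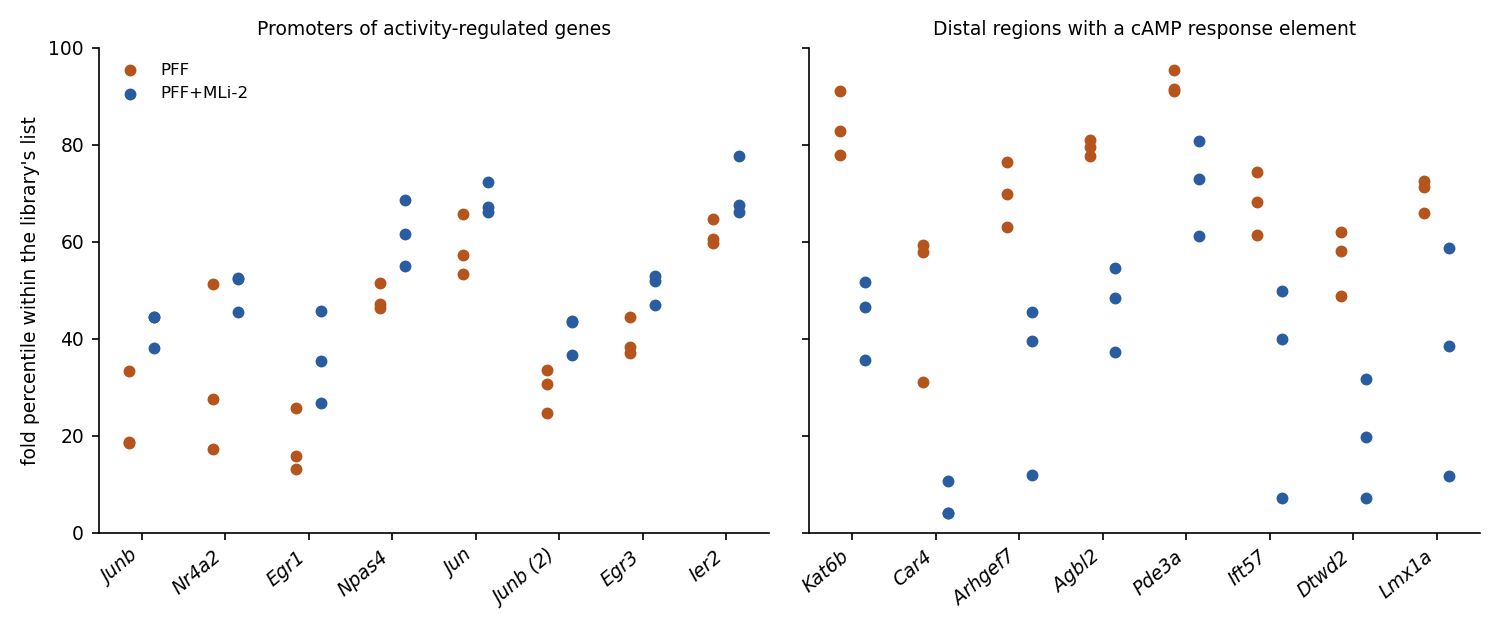
Fold percentile in each library (orange PFF, blue PFF+MLi-2) for the 8 promoter regions of activity-regulated genes with an unadjusted p under 0.05 (left) and the 8 distal regions with a cAMP response element with the most negative shifts (right); both sets were picked by their shift. The Kat6b values go from 77.9 to 91.1 in PFF down to 35.5 to 51.8 with MLi-2, and those of Npas4 from 46.3 to 51.5 up to 54.9 to 68.6.

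Presynaptic gene promoters showed a like picture. Over 77 regions the median shift was 0.14, with 7 (9.09%) higher and 0 lower at an unadjusted p under 0.05, beside 4.199% and 3.04% of all promoter regions, and it was 0.04 by −log10 p and −0.04 by log2 pileup, where 3 were higher and 3 lower. Among the 7 were regions of Syn2, Syt1, Unc13a and Rims2, which act in vesicle release and its assembly, and 2 of Nlgn1, whose product is an adhesion protein of the postsynaptic side, so the name of the list does not describe these 2. At Syn2, which encodes a synapsin, percentiles were 34.3, 45.5 and 38.8 in PFF and 67.1, 72.4 and 57.9 in PFF+MLi-2. Here fragments moved with the rank, from 19, 19 and 20 to 28, 29 and 24, and the groups did not overlap (shift 0.99 ± 0.22 SE, limma adjusted p = 0.228). At the first Nlgn1 region they went from 12, 14 and 11 to 21, 16 and 17.

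Counts for excitatory synapse and channel promoters were close to those of all promoters, of which 4.199% were higher and 3.04% lower. Of 95 promoter regions of excitatory synapse genes 3 (3.16%) were higher and 4 (4.21%) lower at an unadjusted p under 0.05, and voltage-gated channel genes had 3 (3.70%) higher and 4 (4.94%) lower among 81. The region 205 bp upstream of a Grin1 start site, at the gene for the obligate NMDA receptor subunit, stood at percentiles 75.2, 69.6 and 77.4 in PFF and 35.9, 51.2 and 53.5 with MLi-2. Its summit went from 32, 29 and 31 fragments to 18, 18 and 22, and the groups did not overlap (shift −0.78 ± 0.22 SE, limma adjusted p = 0.296). The Kcnc1 region, at a gene for a fast potassium channel, went from 46.3, 54.3 and 61.2 to 7.54, 21.6 and 10.8. Among lost regions were parts of the promoters of Dlg4, the postsynaptic scaffold PSD-95, of Camk2a, of the calcium channel gene Cacna1b and of Kcnip1. They were 2 of 174 excitatory synapse and 2 of 158 channel promoter regions, set against 506 lost of 42413 promoter regions.

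The median shift of astrocyte marker promoters was above 0 under each measure of height, although their median pileup was not higher (28, 27 and 26 fragments in PFF, 26, 26.5 and 24.5 in PFF+MLi-2). Over their 18 regions, 12 of which had a shift above 0 (as had 14403 of all 23337 promoter regions), it was 0.28 by fold, 0.28 with GC correction, 0.25 by −log10 p and 0.06 by log2 pileup, with 4 (22.2%) higher, at Aldh1l1, Slc1a2, Slc1a3 and Aldoc, and 0 lower at an unadjusted p under 0.05 by fold, beside 4.199% and 3.04% of all promoter regions. At a minor region of Slc1a3, a glutamate transporter gene, percentiles were 33.6, 16.1 and 28.6 in PFF and 62.5, 59.0 and 37.4 in PFF+MLi-2, with 17, 14 and 15 against 25, 22 and 18 fragments. The highest promoter peak of Slc1a3 stood at 78, 72.8 and 69.6 in PFF and 66.4, 71.96 and 70.3 in PFF+MLi-2, and that of Aldoc at 82.7, 80.9 and 80.5 against 73.9, 83.5 and 72.4, so neither was higher in all libraries. That of Aqp4, the water channel gene, stood at 11.2, 7.67 and 17.5 against 44.5, 52.9 and 53.4, that of Slc1a2 at 71.4, 75.7 and 70.6 against 76.8, 80.5 and 79.6, and that of Aldh1l1 at 85.2, 86.5 and 86.6 against 86.8, 94.7 and 95.3, all without overlap. The highest promoter peak of S100b went from 68.2, 79.5 and 73.5 to 57.4, 53.9 and 64.9. Lost promoter regions of glutamatergic neuron markers included those at Cux1 and Cux2. Over the 26 regions of glutamatergic neuron markers the median shift was 0.22 by fold and −0.00097 by log2 pileup, with 1 region higher, at Tbr1. The part of astrocyte number in the other shifts was not tested.

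Few promoter regions of the LRRK2 pathway passed an unadjusted p of 0.05. The main Lrrk2 promoter region (chr15:91672921-91673316) stood at percentiles 97.7, 97.8 and 99.2 in PFF and 99.5, 99.5 and 99.1 in PFF+MLi-2, with 34, 35 and 38 against 44, 41 and 39 fragments. The percentiles overlapped and the shift was 0.45 ± 0.22 SE (limma adjusted p = 0.489). A Lrrk2 region 926 bp downstream of a start site stood at 82.1, 74.3 and 68.2 in PFF and 79.1, 39.6 and 56.6 in PFF+MLi-2, with overlap (shift −0.44). The main promoters of Rab5a, Rab5b and Rab10 had shifts of 0.13, 0.17 and 0.18, each smaller than its standard error. Over the 25 regions of Lrrk2 and its Rab substrates 0 were higher and 2 (8%) lower at an unadjusted p under 0.05, beside 4.199% and 3.04% of all promoter regions, both at Rab3b, a Rab of synaptic vesicles, whose main promoter went from 98.2, 98.4 and 97.0 to 91.1, 96.1 and 94.4 with 53, 53 and 46 against 38, 43 and 43 fragments.

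Lysosomal and autophagy promoters were open in both groups, and most of their lost regions lay beside shared peaks. Of 61 shared promoter regions of lysosomal genes 2 (3.28%) were higher and 1 (1.64%) lower at an unadjusted p under 0.05, and of 54 of autophagy and TFEB genes 2 (3.70%) were higher and 0 lower, near the 4.199% and 3.04% of all promoter regions. Lost were 1 of 96 lysosomal and 3 of 94 autophagy promoter regions, against 506 of 42413 in all. The promoter regions of Tfeb and Tfe3 themselves with a peak in all 6 libraries had shifts of 0.02 to 0.31, none past an unadjusted p of 0.05. Others lacked a peak in some libraries, such as a Tfeb region 685 bp downstream of a start site that stood at percentiles 62.9, 76.4 and 54.4 in PFF, had no peak in PFF+MLi-2 library 1 and stood at 10.7 and 27.7 in the other two. Mcoln1, which encodes the lysosomal calcium channel TRPML1, had a lost region with 20, 18 and 22 fragments in PFF that lay 8 bp from a region in all 6 libraries. The lost Rragc region had 21, 18 and 15 fragments and lay 43 bp from one, and that of Gabarap, an autophagosome protein gene, 25, 28 and 26 fragments at 47 bp. The lost Uvrag region, with 10, 12 and 11 fragments, lay 20717 bp from the nearest shared region. Gaa, the acid glucosidase gene, had shifts both ways, with a region upstream of the start site going from percentiles 14.8, 3.44 and 5.15 to 44.1, 37.0 and 15.8 and one downstream from 78.0, 83.3 and 77.3 to 63.7, 68.8 and 63.3. Plekhf1, a gene of an endosomal phosphoinositide-binding protein, had a region 653 bp downstream of its start site that stood at 42.8, 60.8 and 53.6 in PFF and 73.8, 73.2 and 58.0 in PFF+MLi-2, where whole-list percentiles overlapped and scores over shared regions did not (shift 0.71 ± 0.25 SE, limma adjusted p = 0.373). Its main promoter region leaned the other way, from 88.7, 90.3 and 88.3 to 84.5, 85.1 and 88.4 (shift −0.10).

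The remaining lists had few regions past an unadjusted p of 0.05, to be read against the 4.199% of all promoter regions that were higher and the 3.04% that were lower. Of 34 early endosome promoter regions 2 were higher, Appl2 among them, of 29 of the vacuolar proton pump 0, of 30 of synuclein and parkinsonism genes 3 higher, Mapt among them, and 1 lower, at Fbxo7, and of 89 of axon guidance genes 3 higher, at Sema3a, Ntn1 and Epha6, and 1 lower, at Plxnd1. Among GABAergic markers, Gad1 was higher and Dlx1 and Npy were lower, of 15 regions. Olig1 was higher among 8 regions of the oligodendrocyte lineage, Hes1 and Hes5 among 18 of progenitors, and Pdgfrb among 5 of vascular cells. None passed adjustment in limma.

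Of the genes linked to senescence, TGF-beta signalling and DNA damage checkpoints, 5 of 50 shared promoter regions (10%) were higher and 2 (4%) lower at an unadjusted p under 0.05, beside 4.199% and 3.04% of all promoter regions. The higher ones lay at Cdkn1a, the cell cycle inhibitor p21, Trp53, Igfbp5, Smad7 and Smad3, and the lower ones at Lmnb1, the gene of lamin B1, and at another Smad3 start site. The Lmnb1 region was weak and lay 1 bp from a region in all 6 libraries. It stood at percentiles 21.85, 12.02 and 8.516 in PFF and 3.652, 1.111 and 2.885 in PFF+MLi-2. The lower Smad3 region lay 65 bp from a region in all 6 libraries. The Igfbp5 region stood at 0.4542, 0.7693 and 0.302 in PFF and 1.6, 2.682 and 5.435 in PFF+MLi-2. At Cdkn1a percentiles were 77.8, 68.3 and 70.9 in PFF and 80.9, 81.8 and 79.1 in PFF+MLi-2, with 76, 76 and 71 against 73, 72 and 71 fragments. Rank and fragments moved apart here too. The main promoter regions of Ets1, Tgfb2, Camk2b, Sema6b, Chek2, Nbn and P2rx4 had shifts of −0.12 to 0.21, and none passed an unadjusted p of 0.05.

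The single regions with the largest shifts mostly lay away from promoters and in genes outside these lists. The largest positive shift with groups that did not overlap lay between genes at chr17:82844948-82845342, 110654 bp from the nearest start site, that of AC104103.1, with percentiles of 70.2, 10.9 and 33.6 in PFF and 87.7, 93.3 and 85.5 in PFF+MLi-2 (shift 2.01 ± 0.40 SE, limma adjusted p = 0.214). At 12565 bp downstream of Bst1, which encodes an ectoenzyme of NAD metabolism, a region at chr5:43849679-43850003 went from 13, 11 and 10 to 26, 27 and 20 fragments (shift 1.98 ± 0.25 SE, adjusted p = 0.190 by limma). In an exon of Stat2, an interferon signalling gene, percentiles were 48.8, 49.98 and 33.6 against 87.0, 92.0 and 88.8, with 13, 13 and 11 against 27, 31 and 27 fragments. Other positive shifts of this size lay in introns of Npas3 and Zhx3 and between genes, 34236 to 102455 bp from the start sites of Gm6614, Pabpc6 and Gm27684.

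The largest negative shift, in an intron of Gm31508 at chr12:28979779-28979936, took percentiles from 76.1, 82.2 and 86.6 to 24.1, 19.6 and 10.2 and fragments from 21, 24 and 24 to 13, 11 and 11 (shift −1.99 ± 0.23 SE, limma adjusted p = 0.190). Others followed in introns of Parm1, Sbf2, Zfp407, Erbb2, a receptor tyrosine kinase gene, and Prkcb, a protein kinase C gene, at a start site of Gm33979 and 20079 bp from Gm34780. At protein-coding promoters the largest positive shifts were at Gpd2, Adipor2, Lyn, Gpr146, Ptchd4 and Nlgn1. At Gpd2, the mitochondrial glycerol phosphate dehydrogenase gene, fragments went from 14, 12 and 15 to 25, 23 and 27. The largest negative ones were at Ankrd33b, Gtf2i, Crispld2, a start site of Dmd, Ryr1 and Gm8281. At Ryr1, a calcium release channel gene, fragments went from 29, 32 and 28 to 19, 16 and 21, and at Gtf2i, a general transcription factor gene, from 19, 18 and 21 to 13, 11 and 11. In each of these regions the 3 libraries of a group lay apart from those of the other by the choice of regions, and none passed adjustment.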

How the data were processed

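Cortical neuron cultures were profiled by ATAC-seq. The authors trimmed reads with Trim Galore 0.6.7, aligned them with Bowtie2 2.5.1 to GRCm38 and ran MACS2 2.2.7.1 separately per library; the MACS2 options, the handling of duplicates and any Tn5 shift are not given in the sources used here. The deposited peak lists hold fold enrichment over local background (a ratio), −log10 p and −log10 q, and an integer display score, which was not used. Read totals per library were not used here, so depth is known only through the peaks. Pileup and background at each summit were solved from the deposited fold and −log10 p, and pileup came out whole (within 0.001) for 100% of peaks. The 664 of 930210 peaks off the main chromosomes (0.0714%) were left out.

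Regions were placed by the GENCODE vM21 annotation of GRCm38, with promoters 1 kb to each side of a start site. Heights were compared with limma 3.58.1 in R 4.3.3 over the 6 libraries, without covariates, and values per library by exact permutation in scipy 1.17.1 (Python 3.11.15). Scripts were tested on simulated data. Named regions were the 10 lost and 10 gained with the highest mean percentile, the 6 highest of each at protein-coding promoters, genes with the most of each, the 8 largest shifts each way with groups that do not overlap (6 at protein-coding promoters), list genes with a lost or gained promoter region, and genes of the study's question. Some genes that these rules name are not reported here. The gene lists and members were chosen with earlier results of these data known. Alternatives tried were an equal number of top peaks, a stricter q, a larger overlap, other promoter windows, other height measures, GC correction, a replicate block and leaving out each library.

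Beyond the motifs named above, the other forms of CANNTG, an NFI half-palindrome pair, the YY1 core and the NRF1 palindrome were searched on both strands. P-values measure the spread between these cultures. Per the study's methods cultures of each pregnancy were allocated to groups at random. Whether equal replicate numbers mark one pregnancy is not given in the sources used here, and the fit with replicate number as a block is an alternative.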

Additional observations from a re-analysis of the deposited data

How the results depend on the processing

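The excess of lost over gained regions held under every alternative run, but its size did not. With an equal number of top peaks 2069 regions were lost and 1338 gained, and with at least 2 of 3 against 0 of 3 libraries 13053 and 4001. Leaving out 1 library, which loosens the rule to 2 libraries of that group, gave 5468 to 7893 lost and 1171 to 2065 gained. The promoter share of lost regions was 23.16% with 2.5 kb windows, 11.35% with protein-coding start sites and 13% with equal top peaks, and that of gained regions 17.34% and 7.161% with the first 2, and 9.448% to 13.06% without 1 library. Ranking heights within the whole list rather than the shared regions moved the calls at an unadjusted p under 0.05 to 2128 higher and 7928 lower, with a median shift of −0.08 over all regions, so the share of higher calls was 21.2% against 49.2%. No region passed adjustment under any height measure, and the lowest adjusted p by limma ranged from 0.0908 (summit pileup) to 0.438 (without PFF replicate 2).

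Deviations of same-numbered libraries correlated at 0.0217 to 0.0329, below the 0.1 taken to pair them, and those of other pairs at −0.0258 to −0.00226. Each library thus correlated best with its own number, a hint from the data, since the labels and methods do not say what a number stands for. With a replicate block 0 regions passed adjustment, and 4432 were higher and 4912 lower at an unadjusted p under 0.05. With the block and GC correction these were 4585 and 4731.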
